A study of Mus musculus with 11 samples.

Results

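The 39 genes described here belong to the cell's response to a shortage of amino acids and to the cytosolic tRNA synthetases, which share part of that control. They were taken as a set of symbols, chosen with earlier results of these data known, out of 20368 gene symbols in the expression tables. All 39 were found there. By role they are 10 stress factors, 10 enzymes of amino acid synthesis, 7 transporters and 12 tRNA synthetases. In 4 polyA RNA libraries of differentiating muscle cells, 38 of the 39 reached a mean of 1 FPKM or more in each comparison (FPKM is a fragment count scaled by sequence length and by library size). The exception was Slc7a3, a cationic amino acid transporter, listed at 0.158 FPKM in DRRi, 0.0395 in GFPi, 0.0378 in pHAN_DRR1.2 and 0.102 in pHAN_GFP. As a check of the labelled cell type, all 6 muscle markers (Myod1, Myf5, Des, Myog, Cdh15 and Itga7) passed the same filter in both comparisons.

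When amino acids run short, uncharged tRNA activates the kinase GCN2 (Eif2ak4), which phosphorylates the translation factor eIF2alpha. Bulk translation then drops, while translation of the transcription factor ATF4 goes up through upstream open reading frames in its mRNA. ATF4, paired with C/EBP-family partners, binds composite sites called C/EBP-ATF response elements (CARE) and drives genes that take up amino acids, make them and load them onto tRNA. Because the first step acts on translation, the mRNA level of Atf4 alone is an incomplete readout of the pathway.

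All cells of the RNA comparisons were C2C12, a mouse myoblast line that fuses into myotubes in low serum, with the strain label C3H and 4 h in differentiation medium with 2% horse serum. DRRi cells received RNAi against RNA made at the DRR, an enhancer upstream of Myod1, and GFPi cells received RNAi against GFP. The pHAN_DRR1.2 cells overexpressed DRR RNA, and the pHAN_GFP cells overexpressed GFP. Chromatin immunoprecipitation (ChIP-seq) gave peaks of the muscle transcription factor MyoD in myotubes (48 h of differentiation, 2% serum) and in myoblasts (10% fetal bovine serum). It also gave peaks of MyoG, a relative of MyoD, in myotubes, and domains of the enhancer mark H3K4me1 at both stages. Each group holds 1 sample, so no difference below has a replicate check and no test across genes was made. The 2 ribosome-depleted samples, from myotubes and satellite cells, were not analysed here.

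The RNA libraries were alike in summed FPKM (383311 to 411626) and in genes at 1 FPKM or more (10516 to 10694), and their read depth is unknown. Myog, the gene of MyoG, had 2.61 FPKM in DRRi and 10.2 FPKM in GFPi, and it had 65.8 FPKM in pHAN_DRR1.2 and 26.3 FPKM in pHAN_GFP. The summed level of 6 muscle markers was 407 FPKM in DRRi and 481 FPKM in GFPi, and it was 1014 FPKM in pHAN_DRR1.2 and 792 FPKM in pHAN_GFP. The part of this difference in muscle genes in the results below was not tested. In bulk RNA, fewer cells of a type and less RNA per cell cannot be told apart. Adipocyte, endothelial and neural markers were below the filter, 0 of 4 passing in each list, and their summed level stayed at or under 0.445 FPKM in every library. Of the blood markers only Cd68 passed, at 1.70 FPKM in DRRi, 2.52 in GFPi, 2.17 in pHAN_DRR1.2 and 1.58 in pHAN_GFP.

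The sequence element of this pathway can be read directly in the promoters of the members. RefSeq promoters (GRCm38.p6, 250 bases before to 50 after the start, 300 bases in all) were at hand for 31 of the 39 members. The CARE core TGATGNAA was searched on both strands. It was present in 13 of the 31 members. Counted by promoter it was in 13 of 35, against 2.11% of 10003 promoters of expressed genes and 3.91% of all 32544 promoters of that length. The members were picked as genes of this response, so the excess of its element is a description and no independent result. By role, the core was found in 5 of 7 synthetases, 4 of 10 stress factors, 2 of 5 transporters and 2 of 9 enzymes of synthesis. The next 4 promoters are shown because they hold the core and belong to genes that were at least 1.5-fold higher in DRRi than in GFPi. Each is 1 promoter on the strand of its gene, with the core in capitals (TGATGAAA, or TTGCATCA and TTACATCA where it lies on the other strand).
Chac1: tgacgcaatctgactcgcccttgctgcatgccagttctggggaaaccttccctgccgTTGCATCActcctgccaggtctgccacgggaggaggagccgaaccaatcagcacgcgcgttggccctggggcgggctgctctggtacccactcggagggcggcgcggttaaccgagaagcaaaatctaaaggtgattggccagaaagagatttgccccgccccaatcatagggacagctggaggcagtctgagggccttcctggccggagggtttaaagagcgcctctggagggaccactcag
Trib3: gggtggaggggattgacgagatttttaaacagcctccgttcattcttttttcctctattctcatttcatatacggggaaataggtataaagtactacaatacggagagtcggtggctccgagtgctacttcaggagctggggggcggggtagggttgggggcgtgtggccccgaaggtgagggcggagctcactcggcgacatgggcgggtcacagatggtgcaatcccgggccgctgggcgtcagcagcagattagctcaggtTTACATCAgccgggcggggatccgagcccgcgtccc
Asns: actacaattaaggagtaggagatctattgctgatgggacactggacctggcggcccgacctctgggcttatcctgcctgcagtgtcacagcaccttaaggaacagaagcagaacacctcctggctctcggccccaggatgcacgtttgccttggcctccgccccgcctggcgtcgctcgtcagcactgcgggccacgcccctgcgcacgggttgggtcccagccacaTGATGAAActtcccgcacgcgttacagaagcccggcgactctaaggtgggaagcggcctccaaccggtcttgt
Slc1a4: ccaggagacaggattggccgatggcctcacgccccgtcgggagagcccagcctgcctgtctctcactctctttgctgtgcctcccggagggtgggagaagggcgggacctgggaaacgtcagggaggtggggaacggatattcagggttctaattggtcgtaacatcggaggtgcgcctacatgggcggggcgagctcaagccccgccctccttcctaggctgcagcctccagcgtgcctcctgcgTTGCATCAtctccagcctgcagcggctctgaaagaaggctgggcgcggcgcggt

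On GRCm38.p6 these promoters lie at chr2:119350992-119351291 on the plus strand for Chac1, and on the minus strand at chr2:152344011-152344310 for Trib3, chr6:7693160-7693459 for Asns and chr11:20332664-20332963 for Slc1a4. In Chac1, which encodes a glutathione-degrading enzyme, the core began at position -193 relative to the start. In Trib3, a pseudokinase that binds ATF4, it lay just past the start at position 15. In Asns, asparagine synthetase, it began at -23, and in Slc1a4, a transporter of neutral amino acids, at -4. Among the members with a promoter, 4 of the 7 that were 1.5-fold or more higher in DRRi held the core, against 9 of the other 24. A match in the letters is a description of the sequence and not a measured binding site.

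The synthetases shown next carry the core close to where transcription starts. The following windows show the match of 4 synthetases with 10 bases on either side, turned so that the core reads TGATGNAA (capitals), since this is the role group with the largest share of matches.
Gars: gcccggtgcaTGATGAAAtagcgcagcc
Iars: cgtctggaggTGATGCAAtactgacagt
Tars: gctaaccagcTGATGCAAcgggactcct
Yars: cgagctcagcTGATGCAAcccgacggga

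The core in these synthetases began at -30 in Gars, at 8 in Iars, at -15 in Tars and at 4 in Yars. In Tars and Yars the bases before the core make it run on from CAGCTG, the E-box that MyoD prefers, so that 2 bases belong to both motifs. The E-box, searched on both strands, was found in 6 of 31 members (Chac1, Nupr1, Pycr1, Slc7a1, Tars and Yars). Counted by promoter it was in 6 of 35, against 15.1% of promoters of expressed genes. Both motifs stood in the promoters of 5 members, and in Chac1 they were 166 bases apart, in Nupr1 95 and in Pycr1 12.

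Other members with the core outside the synthetases are 2 stress factors, Atf3 and Nupr1, the proline enzyme gene Pycr1 and the cystine transporter gene Slc7a11. They are shown to compare the bases around the core with those of the synthetases.
Atf3: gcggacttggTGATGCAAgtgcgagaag
Nupr1: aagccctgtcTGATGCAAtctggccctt
Pycr1: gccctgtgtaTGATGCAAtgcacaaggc
Slc7a11, first match: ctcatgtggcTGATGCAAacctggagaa
Slc7a11, second match: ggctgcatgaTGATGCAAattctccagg

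In all 4 genes the core read TGATGCAA, and in Slc7a11 it was present once on each strand, beginning at -66 and at -47. Atf3 and Pycr1 hold the core and were among the members not higher in DRRi than in GFPi. Promoters of Ddit4 and Psph, which were more than 2-fold higher in DRRi, hold neither motif in this window.

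The first RNA comparison asked how cells with RNAi against the DRR RNA differ from cells with RNAi against GFP. Most members were higher in DRRi. Of the 38 that passed the filter, 33 lay above 0 on the log2 scale and 5 below, while 53.5% of 10577 genes lay above 0. The difference was large in a few stress factors (Chac1, Ddit4, Trib3) and in the last step of serine synthesis (Psph), and small in nearly all synthetases. The members' median log2 change was 0.34, beside 0.02 for all genes. All changes are log2 ratios of FPKM + 1, a scale that understates the change of weakly expressed genes.

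**Figure D1:**
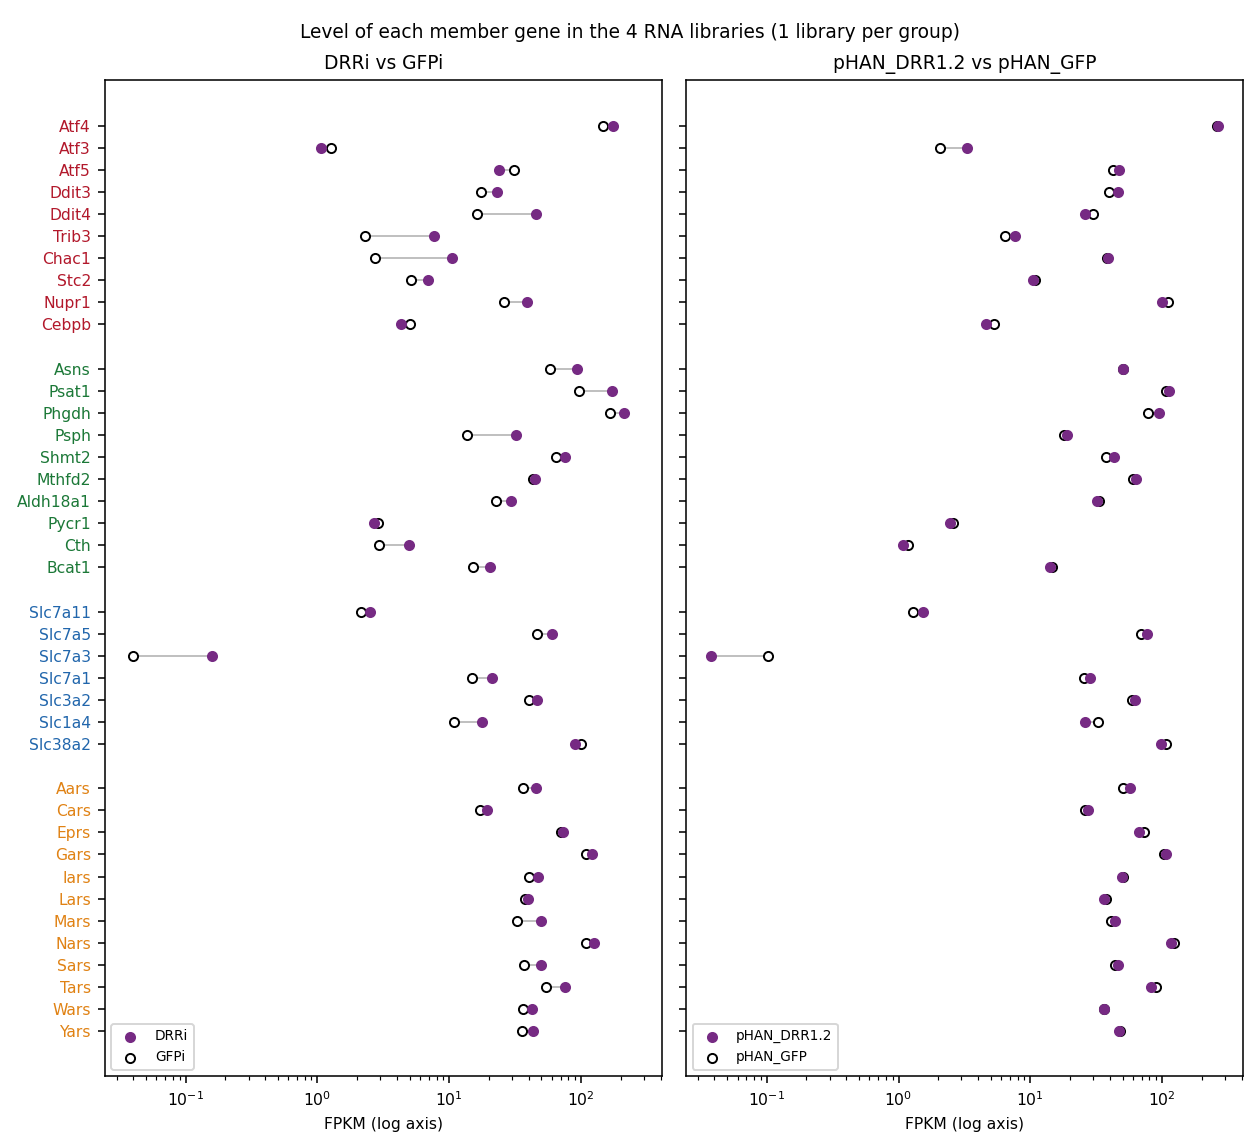
FPKM of each member on a log axis in DRRi (filled) and GFPi (open) at the left and in pHAN_DRR1.2 (filled) and pHAN_GFP (open) at the right, 1 library per group, with names coloured by role (red stress factors, green synthesis, blue transporters, orange synthetases). Chac1, Ddit4, Trib3 and Psph show the widest gaps at the left among members past the filter, whereas at the right most filled and open points lie on each other.

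By threshold, 9 of 38 members were higher by 1.5-fold or more, against a background of 4.66% of all genes tested, and 0 were lower by that much, against 3.5%. At 2-fold or more, 4 members were higher, against 0.898%. In the authors' deposited table, 4 members had a q-value under 0.05 and a higher level, against 0.643% of genes, and 8 had a p-value under 0.05, against 4.16%. At the q threshold 0 members were lower in the authors' deposited table, against 0.577% of genes, and at the p threshold 0, against 3.67%. Those deposited values rest on 1 library per condition. The members were chosen with earlier results of these data known, so their shares beside the background are a description.

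Among the stress factors, 7 of 10 lay above 0, with a median of 0.39. Chac1 was at 10.5 FPKM in DRRi and 2.74 FPKM in GFPi, a log2 change of 1.62, the highest of the members. Ddit4, an inhibitor of mTORC1 signalling, was at 45.3 FPKM in DRRi and 16.3 FPKM in GFPi (1.42). Trib3 was at 7.62 FPKM in DRRi and 2.29 FPKM in GFPi (1.39). These 3 genes stood well apart from the other 7 stress factors. The q-value in the authors' deposited table was 0.00179 for Ddit4, 0.00786 for Chac1 and 0.0229 for Trib3.

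The other stress factors, the transcription factors among them, stayed under 1.5-fold in either direction. Atf4 was at 173 FPKM in DRRi and 147 FPKM in GFPi (0.23). Ddit3, which encodes the factor CHOP, was at 23.1 FPKM in DRRi and 17.3 FPKM in GFPi (0.39). Nupr1, a small stress-induced chromatin protein, was at 38.5 FPKM in DRRi and 25.8 FPKM in GFPi (0.56), just under 1.5-fold. The secreted glycoprotein gene Stc2 was at 6.92 FPKM in DRRi and 5.08 FPKM in GFPi (0.38). The other factors pointed the other way. Atf5 was at 23.7 FPKM in DRRi and 30.8 FPKM in GFPi (-0.36), the lowest change of the members. Cebpb was at 4.29 FPKM in DRRi and 5.07 FPKM in GFPi (-0.20). Atf3 was near the filter, at 1.06 FPKM in DRRi and 1.27 FPKM in GFPi (-0.14).

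The enzymes of amino acid synthesis were higher in 9 of 10 cases, with a median of 0.38, and 4 passed 1.5-fold. Serine is made from a glycolytic intermediate in a chain of 3 enzymes, Phgdh, Psat1 and Psph. Psph, the phosphatase that releases serine, was at 31.8 FPKM in DRRi and 13.7 FPKM in GFPi (1.16), with a q-value of 0.0354 in the authors' deposited table. Psat1, the transaminase before it, was at 173 FPKM in DRRi and 96.3 FPKM in GFPi (0.84). Phgdh, the entry enzyme, was at 210 FPKM in DRRi and 165 FPKM in GFPi (0.35). All 3 were higher in DRRi, and in this 1 pair of libraries the difference was larger the later the step. The genes that pass serine on to one-carbon metabolism differed less, with Shmt2 at 75.2 FPKM in DRRi and 64.7 FPKM in GFPi (0.21) and Mthfd2 at 44.4 FPKM in DRRi and 42.8 FPKM in GFPi (0.05). In pHAN_DRR1.2 over pHAN_GFP the order by step was not kept, at 0.28 for Phgdh, 0.07 for Psat1 and 0.07 for Psph.

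Asns was at 92.6 FPKM in DRRi and 57.8 FPKM in GFPi (0.67). Cth, which makes cysteine from cystathionine, was weakly expressed, at 4.92 FPKM in DRRi and 2.93 FPKM in GFPi (0.59). Both were past 1.5-fold, Cth only narrowly. In the authors' deposited table the p-value was 0.0167 for Asns, 0.00302 for Psat1 and 0.116 for Cth, and none of these 3 had a q-value under 0.05. The branched-chain transaminase gene Bcat1 was at 20.3 FPKM in DRRi and 15.2 FPKM in GFPi (0.39). The proline pathway was split, with Aldh18a1 at 29.5 FPKM in DRRi and 22.5 FPKM in GFPi (0.37) and Pycr1 at 2.69 FPKM in DRRi and 2.87 FPKM in GFPi (-0.07), the only enzyme below 0.

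Of the transporters that passed the filter, 5 of 6 lay above 0, with a median of 0.28. Slc1a4 was at 17.8 FPKM in DRRi and 10.8 FPKM in GFPi (0.67), the only transporter past 1.5-fold, and its p-value in the authors' deposited table was 0.0183. Slc7a1, a carrier of cationic amino acids, was at 21.2 FPKM in DRRi and 15.0 FPKM in GFPi (0.47). Slc7a5 and Slc3a2 form the light and heavy chain of a leucine exchanger. Slc7a5 was at 59.9 FPKM in DRRi and 46.0 FPKM in GFPi (0.37). Slc3a2 was at 46.2 FPKM in DRRi and 40.2 FPKM in GFPi (0.20). The glutamine carrier gene Slc38a2 was the only transporter below 0, at 89.2 FPKM in DRRi and 99.3 FPKM in GFPi (-0.15). Slc7a11 was low in both, at 2.52 FPKM in DRRi and 2.14 FPKM in GFPi (0.16).

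The synthetases, which charge tRNAs with their amino acids, were the most even group. All 12 were higher in DRRi, their log2 changes ran between 0.04 and 0.59, and their median was 0.23. Mars, for methionine, was at 49.7 FPKM in DRRi and 32.7 FPKM in GFPi (0.59) and was the only one past 1.5-fold, with a p-value of 0.0440 in the authors' deposited table. Its log2 change was only narrowly past that threshold: after centring on the median of all genes, Mars (0.57) and Cth (0.57) were below it. Tars, for threonine, was at 76.0 FPKM in DRRi and 53.8 FPKM in GFPi (0.49). Sars, for serine, was at 49.9 FPKM in DRRi and 36.8 FPKM in GFPi (0.43). The smallest difference was that of Eprs, for glutamate and proline, at 72.3 FPKM in DRRi and 70.3 FPKM in GFPi (0.04). Aars, Cars, Gars, Iars, Lars, Nars, Wars and Yars lay between 0.07 and 0.33. The locus of Mars in the table is also that of Ddit3, and their values come from separate coding sequences.

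**Figure D2:**
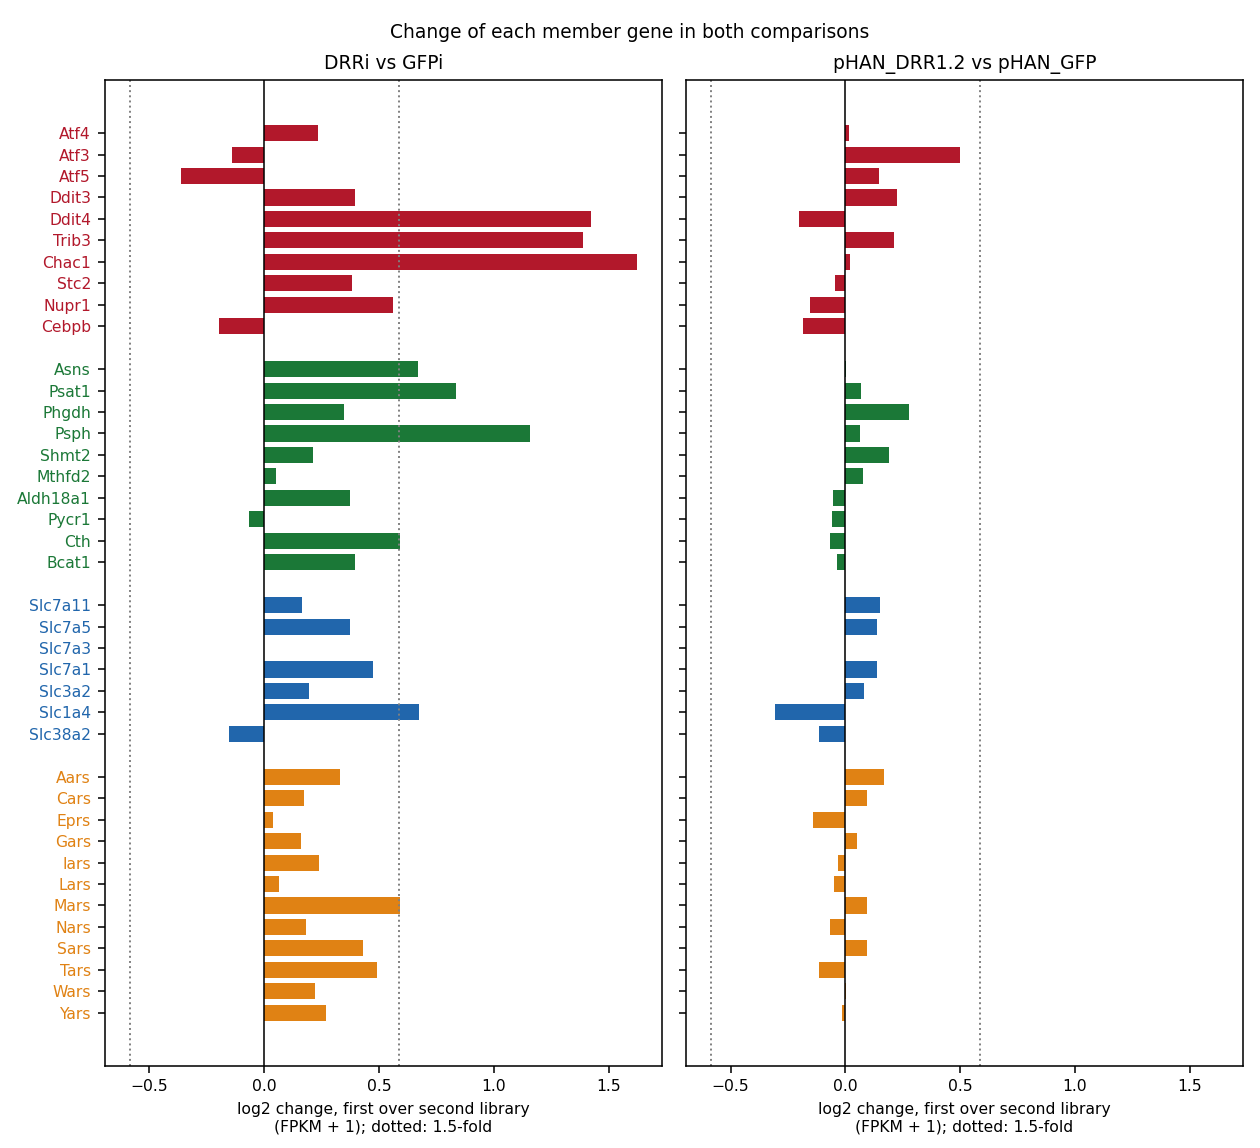
log2 change (FPKM + 1) of each member that passed the filter, DRRi over GFPi at the left and pHAN_DRR1.2 over pHAN_GFP at the right, bars coloured by role, with dotted lines at 1.5-fold. At the left 33 bars point up and 9 cross the upper line, and at the right no bar crosses either line.

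The second comparison asked about the opposite manipulation, overexpression of DRR RNA against overexpression of GFP. The members were close to level between these libraries. Of 38 members, 22 lay above 0 and 16 below, beside 55.6% of 10699 genes above 0. The median log2 change was 0.02, the same as for all genes to 2 decimals. No member was higher by 1.5-fold or more, against a background of 1.38%, and none was lower, against 0.654%. At 2-fold or more the background was 0.318% higher and 0.0841% lower, with 0 members in either. In the authors' deposited table, 0 members had a q-value under 0.05 in either direction, against 1.03% of genes higher and 0.589% lower, and 1 member, Atf3, had a p-value under 0.05 and a higher level, against 3.88%.

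Atf3 was the highest, at 3.33 FPKM in pHAN_DRR1.2 and 2.06 FPKM in pHAN_GFP, a log2 change of 0.50, with a p-value of 0.0439 and a q-value of 0.804 in the authors' deposited table. Phgdh followed at 94.8 FPKM in pHAN_DRR1.2 and 78.0 FPKM in pHAN_GFP (0.28). Slc1a4 was the lowest, at 26.2 FPKM in pHAN_DRR1.2 and 32.5 FPKM in pHAN_GFP (-0.30). Slc1a4 thus lay below 0 here and above 0 in DRRi. Ddit4 did likewise, at 25.8 FPKM in pHAN_DRR1.2 and 29.9 FPKM in pHAN_GFP (-0.20).

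The genes with the largest differences in DRRi were nearly level here. Chac1 was at 38.7 FPKM in pHAN_DRR1.2 and 38.2 FPKM in pHAN_GFP (0.02). Psph was at 18.9 FPKM in pHAN_DRR1.2 and 18.0 FPKM in pHAN_GFP (0.07). Trib3 was at 7.64 FPKM in pHAN_DRR1.2 and 6.46 FPKM in pHAN_GFP (0.21). Asns, at 50.2 FPKM in pHAN_DRR1.2 and 50.1 FPKM in pHAN_GFP, and Atf4, at 264 FPKM in pHAN_DRR1.2 and 262 FPKM in pHAN_GFP, were level. The synthetases were split evenly, 6 above 0 and 6 below, between -0.14 for Eprs and 0.17 for Aars.

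**Figure D3:**
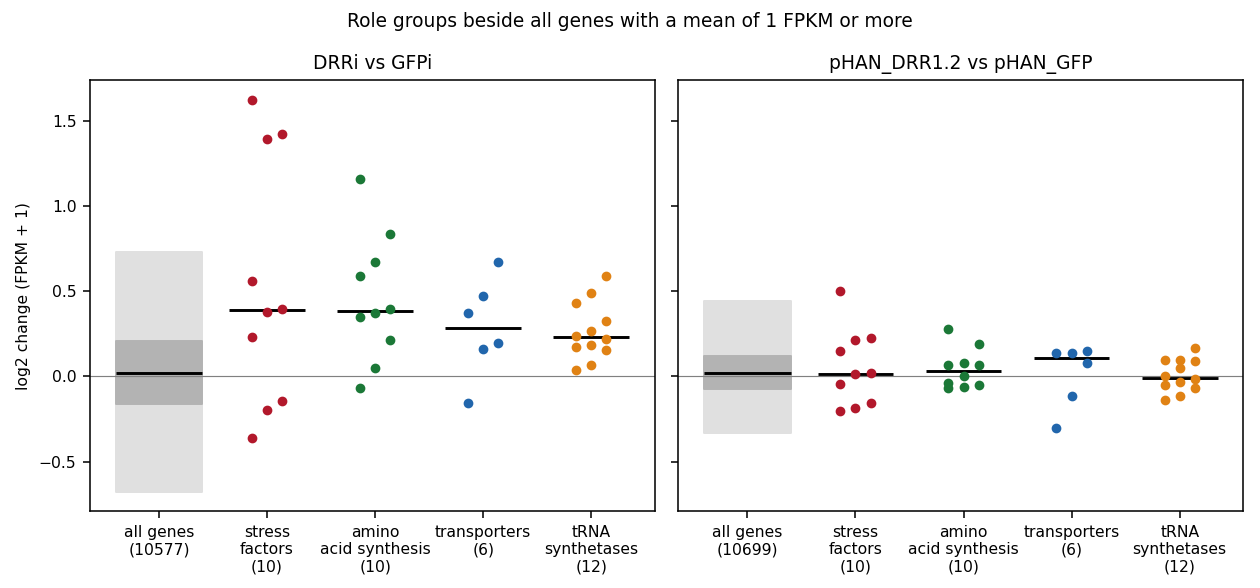
log2 change (FPKM + 1) of the members by role group (points, with the number of genes in brackets and the median as a line) beside all genes that passed the filter (dark band the central 50%, light band the central 95%, line the median). In DRRi over GFPi the 4 medians lie between 0.23 and 0.39, and in pHAN_DRR1.2 over pHAN_GFP between -0.01 and 0.11.

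Set side by side, 20 members lay above 0 in both comparisons, 13 above 0 in DRRi and below in pHAN_DRR1.2, 2 the other way round (Atf3 and Atf5) and 3 below 0 in both (Cebpb, Pycr1 and Slc38a2). Across the 38 members the 2 sets of changes had a Pearson r of -0.11, a description over genes that share libraries and are not replicates. Within 0.25 of 0 lay 16 members in DRRi and 35 in pHAN_DRR1.2, where all genes had 63% in DRRi and 87.1% in pHAN_DRR1.2. The 2 comparisons have separate controls.

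Some members stood at other levels in the 2 controls, in both directions. The tables were normalized separately, so their levels are only set side by side, and fold counts between them are a description. Chac1 was at 38.2 FPKM in pHAN_GFP and 2.74 FPKM in GFPi. Nupr1 was at 110 FPKM in pHAN_GFP and 25.8 FPKM in GFPi. Trib3 was at 6.46 FPKM in pHAN_GFP and 2.29 FPKM in GFPi. Chac1 and Nupr1 were thus higher in pHAN_GFP than in DRRi as well. In all, 10 members were 1.5-fold or more higher in pHAN_GFP than in GFPi, beside 8.42% of all genes, and 3 were 1.5-fold or more lower, beside 9.08% of all genes, among them Phgdh at 78.0 FPKM in pHAN_GFP and 165 FPKM in GFPi. The members' median log2 difference was 0.40, beside -0.04 for all genes.

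Neighbouring parts of the pathway, taken as whole lists, were also examined. Of 11 other cytosolic synthetases and scaffold proteins, 9 were above 0 in DRRi, with a median of 0.19 and none past 1.5-fold. The 17 mitochondrial synthetases, encoded by separate genes, had a median of 0.00 in DRRi, with 9 above 0. Cytosolic enzymes were thus mostly higher in DRRi and mitochondrial enzymes evenly spread. In pHAN_DRR1.2 the mitochondrial list had a median of -0.03. Lars2, for mitochondrial leucine, stood alone at 52.4 FPKM in pHAN_DRR1.2 and 195 FPKM in pHAN_GFP (-1.88), the lowest change of all genes past the filter there. Lars2 was also the lowest of this list in DRRi, at 44.9 FPKM in DRRi and 63.6 FPKM in GFPi (-0.49). The level of Lars2 was out of line with this list as well. Iars2, the next highest, was at 18.4 FPKM in pHAN_DRR1.2 and 19.4 FPKM in pHAN_GFP. The source of the Lars2 difference was not tested.

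Upstream, 11 of 12 genes of the eIF2alpha kinases, phosphatases and eIF2B lay above 0 in DRRi, with a median of 0.20. Eif2b5, the catalytic subunit of the exchange factor eIF2B, was at 49.3 FPKM in DRRi and 27.2 FPKM in GFPi (0.84), the only one past 1.5-fold. The amino acid sensor kinase gene Eif2ak4 was at 7.98 FPKM in DRRi and 6.49 FPKM in GFPi (0.26). Among other genes known as ATF4 targets, 11 of 14 lay above 0 in DRRi, and 2 were past 1.5-fold. These were Gdf15, a stress cytokine gene, with a log2 change of 1.73, and Sesn2, an inhibitor of mTORC1, with 1.35. In pHAN_DRR1.2 the same list had 8 of 15 above 0 and none past 1.5-fold.

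One-carbon and serine genes outside the members had 7 of 8 above 0 in DRRi and a median of 0.21. Tyms, thymidylate synthase, was past 1.5-fold in both comparisons, at 15.8 FPKM in DRRi and 8.93 FPKM in GFPi (0.76), and at 6.91 FPKM in pHAN_DRR1.2 and 2.68 FPKM in pHAN_GFP (1.10). Genes of amino acid sensing for mTORC1 had a median of 0.01 in DRRi, with 5 of 9 above 0, and -0.01 in pHAN_DRR1.2.

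Endoplasmic reticulum chaperones, which are induced by unfolded protein, went the other way. All 12 lay below 0 in DRRi, where the median was -0.42, and 2 were past 1.5-fold. Creld2 was at 39.2 FPKM in DRRi and 64.7 FPKM in GFPi (-0.71). Dnajb9 was at 10.7 FPKM in DRRi and 16.8 FPKM in GFPi (-0.61). All 12 were also lower in pHAN_DRR1.2 than in pHAN_GFP, with a median of -0.25 and none past 1.5-fold. Hspa5, the abundant chaperone BiP, was at 372 FPKM in DRRi and 538 FPKM in GFPi, and at 651 FPKM in pHAN_DRR1.2 and 782 FPKM in pHAN_GFP.

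The ChIP-seq lists asked where MyoD and MyoG were bound near the members. Peaks were counted within 10 kb of each locus of the expression tables (mm9). In myotubes, 36 of 39 members (92.3%) had a MyoD peak, against 73.9% of expressed genes (a mean of at least 1 FPKM in either table) and 56% of all symbols. In myoblasts, 21 of 39 (53.8%) had one, against 45.3% of expressed genes and 34.3% of all symbols. A MyoG peak was near 31 of 39 members (79.5%), against 69.9% of expressed genes and 52.9% of all symbols. The MyoG difference did not hold for strong peaks: with peaks at or above the median score of the list alone, 17 of 39 members (43.6%) had one, a smaller share than the 47.3% of expressed genes. For MyoD in myotubes the same limit left 25 of 39 members (64.1%), against 52.5% of expressed genes. The 3 members with no MyoD peak in myotubes were Slc7a3, Iars and Tars. Members had a median locus length of 20994 bp, and expressed genes 24606 bp. Ddit3 and Mars share a locus of 20994 bp, so the same window enters the member counts and medians for both.

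**Figure D4:**
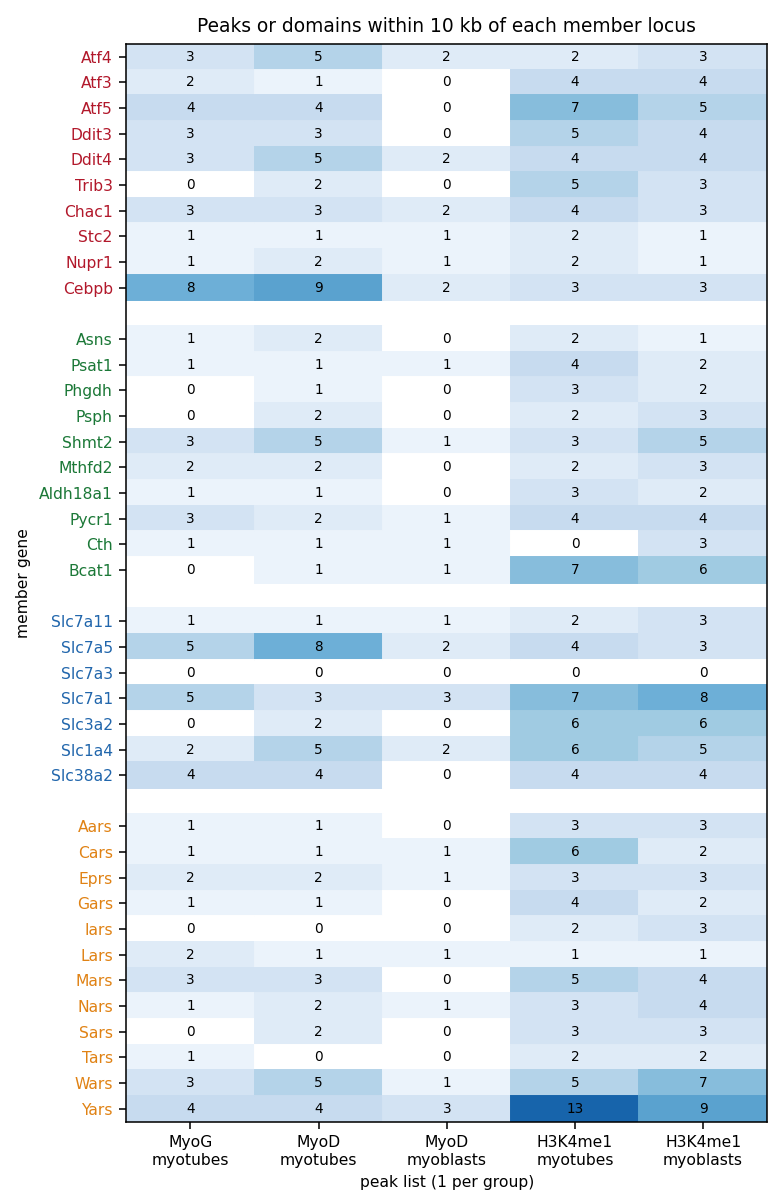
Number of MyoG and MyoD peaks and H3K4me1 domains within 10 kb of each member locus, 1 column per deposited list and darker blue for more. Slc7a3 has none in any column, and Cebpb has the most MyoD peaks in myotubes, with 9.

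Of 95 MyoD peaks near members in myotubes, 28 (29.5%) overlapped a MyoD peak of myoblasts, against 32.3% of peaks near any gene. A MyoG peak overlapped 57 of the 95 (60%), against 67%. An H3K4me1 domain of myotubes overlapped 77 (81.1%), against 85.3%, and a domain of myoblasts overlapped 64 (67.4%), against 62.8%. Seen from the other lists, 26 of 31 MyoD peaks of myoblasts near members overlapped one of myotubes (83.9%, against 78.3%), and 59 of 73 MyoG peaks overlapped a MyoD peak (80.8%, against 77.7%). In these overlaps the peaks near members lay close to the shares near any gene.

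The peaks stood close to the start of many members. For 26 members with a locus of their own and a known strand, the start end (the end of the locus where transcription begins) could be told. A MyoD peak of myotubes was centred within 1 kb of it in 17 of 26 members (65.4%), against 30.5% of 6935 expressed genes chosen in the same way. In myoblasts this held for 8 of 26 (30.8%), against 10.9%, and for MyoG in 10 of 26 (38.5%), against 22.1%. Within 500 bp there were 14 members with a MyoD peak of myotubes against 23.2% of those genes, 7 with one of myoblasts against 8.15%, and 9 with a MyoG peak against 15.6%. These windows were set after the peaks had been seen. Peaks of any score were counted, the weak ones of Trib3 and Psph described below among them, and no limit on score was applied.

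**Figure D5:**
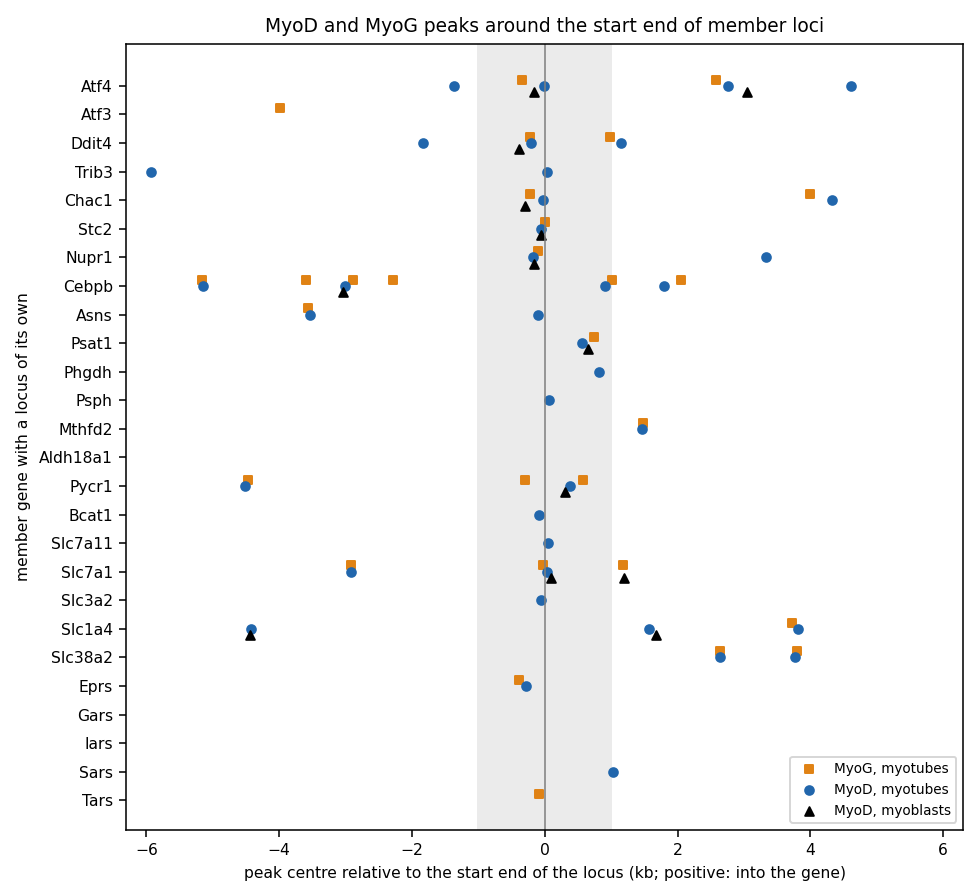
Centres of MyoG peaks (squares), MyoD peaks of myotubes (circles) and MyoD peaks of myoblasts (triangles) relative to the start end of 26 member loci, out to 6 kb on either side, with positive distances into the gene and the band of 1 kb in grey. In Atf4, Ddit4, Chac1, Stc2, Nupr1, Psat1, Pycr1 and Slc7a1 all 3 kinds of peak fall in the band, whereas Gars, Iars and Aldh18a1 have no peak in the range shown.

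By score, a value of the authors that is used here only within a list, the highest MyoD peak near a member in myotubes was at Atf4. This peak, chr15:80084858-80086331 (mm9), had a score of 2469, beside a median of 175 for its list, and its centre lay 19 bp before the start end. The myoblast peak there, chr15:80084514-80086386, had a score of 2053, beside a median of 162. The MyoG peak at the start of Atf4 had a score of 258, beside a median of 136. Atf4 thus had a high MyoD peak at its start at both stages.

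Stc2 and Psat1 also had high MyoD peaks at both stages. At Stc2 the peak score was 1265 in myotubes and 801 in myoblasts. At Psat1 it was 1714 in myotubes and 548 in myoblasts, with a MyoG peak of 1038. The Psat1 peak, chr19:15998378-15999596 (mm9) in myotubes, was centred 562 bp into the gene. Inside the Slc7a5 locus, 2 myotube MyoD peaks had scores of 1765 and 1193, and 2 myoblast peaks at the same places had 690 and 232.

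The 4 members more than 2-fold higher in DRRi were not all alike in binding. Chac1 and Ddit4 had MyoD peaks of both stages and a MyoG peak centred within 1 kb of the start end. Trib3 and Psph had only a MyoD peak of myotubes there. The peaks come from myoblasts and from myotubes at 48 h, other stages than the 4 h of the RNA libraries. At Chac1 the myotube MyoD peak chr2:119176118-119177768 (mm9) had a score of 515 and was centred 34 bp before the start end, and the myoblast peak had a score of 103. At Ddit4, 2 myotube MyoD peaks flanked the start end, with scores of 344 before it and 635 after it, and a myoblast peak had a score of 77.5. Trib3 and Psph had weak myotube peaks at the start end, with scores of 67.6 and 61.5, near the lowest score of the list (60). Neither had a MyoG peak or a myoblast MyoD peak within 10 kb. Asns had a myotube peak at the start end with a score of 85.2 and a stronger one, 429, upstream.

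Of the 12 synthetases, 5 (Eprs, Gars, Iars, Sars and Tars) had a locus of their own and a known strand. Within 1000 bp of the start end, 1 of these 5 (Eprs) had a MyoD peak of myotubes, 2 (Eprs and Tars) had a MyoG peak and 0 had a MyoD peak of myoblasts. The MyoD peak of Eprs, with a score of 88.9, was centred at -288 bp from the start end, where a minus marks the side before it. In Gars, a MyoD peak with a score of 657 and a MyoG peak of 661 lay inside the locus, with centres 22437 and 22505 bp from the start end. Near Wars a MyoG peak with a score of 1187 and a MyoD peak of 589 lay outside the locus, at 3164 and 3100 bp from it. At Cars a MyoD peak with a score of 888 overlapped the edge of the locus. Tars, whose promoter holds the overlapping core and E-box, had no MyoD peak within 10 kb and a MyoG peak with a score of 65.6 centred 91 bp before the start end. Yars, whose promoter holds the same overlap, shares its locus with C77080. Within 10 kb of that locus lay 4 MyoD peaks of myotubes, 3 MyoD peaks of myoblasts and 4 MyoG peaks.

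H3K4me1 was near almost every member, in 37 of 39 in myotubes (94.9%) against 94.5% of expressed genes and 72% of all symbols, and in 38 of 39 in myoblasts (97.4%) against 95.7% of expressed genes and 73.6% of all symbols. With domains of a fold of 4 or more alone, the members' share was below that of expressed genes, at 14 of 39 (35.9%) against 41% in myotubes and 4 of 39 (10.3%) against 15.7% in myoblasts. The share of each window covered by domains had a median of 27.3% for members in myotubes and 17.8% in myoblasts, against 19.6% in myotubes and 17.4% in myoblasts for expressed genes. Slc7a5 had 4 myotube domains within 10 kb. The 1 that reached inside its locus was 31400 bp long, chr8:124398201-124429600 (mm9), with 1381 ChIP reads against 282 control reads. In the Trib3 window the cover was 61.7% in myotubes and 41.4% in myoblasts, and in the Chac1 window 59.2% in myotubes and 68.4% in myoblasts. Psat1 went the same way as Trib3, with 32.6% in myotubes and 8.01% in myoblasts. Cth had 0 domains in myotubes and 3 in myoblasts.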

How the data were processed

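The gene set and the lists were chosen with earlier results of these data known. The authors deposited 1 expression table per experiment, which holds, per the file headers, FPKM of each coding sequence in both conditions with a p-value and a q-value. The tables call the DRRi and pHAN_DRR1.2 libraries by other names than the labels do, and they were identified as the condition not named for GFP. The submitters' processing notes name TopHat, SICER, bedtools and the genome build mm9. Versions, scaling and read depth are not given in the sources used here. The tables were normalized separately, and changes were computed within each. MACS made the MyoD and MyoG peak lists, per the file headers, and each peak has a deposited score. The H3K4me1 files hold, for each domain, deposited counts of ChIP and control reads and a fold (ratio) of the authors over control. All columns with values of samples could be mapped.

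FPKM were summed per gene symbol. A gene was kept at a mean of both libraries of 1 FPKM or more, and its change is log2 of (FPKM + 1), treated over control. Thresholds were 1.5-fold and 2-fold, with the share of all genes past the same fold as background. With 1 library per group no p-value was computed, and deposited p-values and q-values are quoted as the authors'. For symbols with several coding sequences the lowest deposited value was taken. Peaks count as near a member within 10 kb of its locus and as overlapping from 1 bp. Scores and read counts give no interval for a difference between lists. Loci are those of the tables, counted from 1 in mm9, and strands come from RefSeq by symbol. Promoter sequences are from RefSeq (GRCm38.p6); no position was moved between builds. The promoter sequence of 1 synthetase is not reported here. Named genes are those past 1.5-fold, those with a deposited q-value under 0.05 and the extremes of each role group, and others were named after their values were seen. Scripts ran in Python 3.11.15 with pandas 2.3.3, NumPy 2.4.6 and matplotlib 3.10.9, and were tested on simulated data.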

Additional observations from a re-analysis of the deposited data

How the results depend on the processing

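With 1 library per group the differences have no replicate error, no library could be left out, and unknown read depth limits what can be said of weak members such as Atf3, Cth and Slc7a3. No paired analysis was possible because each group has 1 sample. Of 438 alternative values, 39 of the counts and medians and 378 of the values for single genes or all genes stayed within the tolerance set (1.5 times for a count, 0.1 for a log2 value). The number of members 1.5-fold or more higher in DRRi was 7 with a minimum of 5 FPKM, which Cth and Trib3 do not reach, and 7 after centring on the median of all genes, which leaves Mars and Cth below the threshold, and 9 in the other alternatives. For pHAN_DRR1.2 the number higher was 1 with a pseudocount of 0.1 (Atf3, log2 change 0.67), and the number lower was 1 with the most abundant coding sequence alone (Aldh18a1, -0.63). The 2 coding sequences of Aldh18a1 differ in opposite directions, at 17.8 FPKM in pHAN_DRR1.2 and 28.2 FPKM in pHAN_GFP, and at 13.9 FPKM in pHAN_DRR1.2 and 4.73 FPKM in pHAN_GFP. The members' median in pHAN_DRR1.2 became -0.0030 after centring. With peaks at or above the median score of their list, 12 members had a MyoD peak in myoblasts (30.8%, against 28.1% of expressed genes) and 17 a MyoG peak (43.6%, against 47.3%). With domains of a fold of 4 or more, 14 members had H3K4me1 in myotubes (35.9%, against 41%) and 4 in myoblasts (10.3%, against 15.7%). At a window of 500 bp, added after seeing the data, 14 members had a MyoD peak of myotubes at the start end, 7 one of myoblasts and 9 a MyoG peak. The limits on score, fold and window count fewer peaks and domains by construction.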
